A study of Mus musculus with 6 samples.

Results

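Enzymes that write or erase lysine methylation on histones, or remove acetyl groups from lysines, were examined as a family: the lysine demethylases, the lysine methyltransferases, the histone deacetylases (HDACs) and the sirtuins. Members were chosen by gene symbol (those beginning with Kdm, Kmt2, Kmt5, Setd, Suv39h or Hdac and a family number, together with Ezh1, Ezh2, Eed, Suz12, Ehmt1, Ehmt2, Nsd1, Nsd2, Nsd3, Dot1l and Sirt1 to Sirt7). The rule used no measured value, left out a single Kdm gene that is not analysed here, and found 65 of the 22063 genes in the table. They comprise 17 demethylase genes, 30 genes for methyltransferases or their core partners, 11 HDAC genes and 7 sirtuin genes. The RNA came from mouse primary cardiac fibroblasts of animals on a C57BL/6J background that carried loxP sites around Tet3 (Tet3 f/f). GFP denotes the control cells, which had received an adenovirus coding for green fluorescent protein, and CRE denotes the Tet3 knockout cells, which had received an adenovirus coding for Cre recombinase. All cells, in 3 libraries a group, received TGF-β, the cytokine under which fibroblasts become matrix-producing myofibroblasts. TGF-β-free cells are not analysed here, the age and sex of the animals are not given, and no label says whether libraries came from separate animals or cultures. The study speaks of biological replicates without saying which of these they were, so the p-values measure only the spread between these libraries, which may be technical.

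A histone lysine can be methylated or acetylated, and which lysine carries the mark decides how it is read: methylation of H3K4 accompanies promoters and enhancers in use, methylation of H3K27 and H3K9 accompanies silent chromatin, and methylation of H3K36 and H3K79 lies over transcribed genes. Most of these enzymes exist as paralogs that act on the same lysine, so the balance within a pair can shift without a change in the total. Many work beside DNA methylation, and TET3, the enzyme whose gene was targeted, oxidises 5-methylcytosine in DNA at CpG dinucleotides. Setting CRE beside GFP asks which of these transcripts differ after Cre in fibroblasts under TGF-β.

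Total counts were between 17002126 and 20343590 per library, so a count of 0 would allow up to 0.156 to 0.187 CPM (normalized read counts after TMM scaling, which centres the bulk of genes on no change), counting error only. The members took 0.331% to 0.362% of all counts. Tet3 itself had 1044, 965 and 1000 counts in GFP libraries and 642, 649 and 637 in CRE libraries, an incomplete fall to 60.8% of the GFP mean. GFP replicate 1 stood apart on the second principal component, which carried 10.3% of the variance. Fibroblast markers were abundant but lower after Cre, under TMM and under library size alone, with a summed level of 29289 to 30455 CPM in GFP and 18106 to 19516 CPM in CRE libraries (8 of 9 markers fell, and none rose). Endothelial markers also fell (7 of 8), from a sum of 393.2 to 439.0 CPM to 191.0 to 218.3 CPM, as did macrophage markers (3 of 5 tested out of 7), from 57.7 to 65.9 CPM to 34.1 to 37.3 CPM. Smooth muscle and pericyte markers went from 75.3 to 86.7 CPM to 55.8 to 66.0 CPM (5 of 7 fell and 1 rose), and no cardiomyocyte marker had enough counts to be tested, with sums of 0.73 to 1.13 CPM over the 6 libraries and Myh6 at 0 in every library. In bulk RNA, fewer cells of a type and less RNA per cell cannot be told apart, and the part of these shifts in the results below was not tested.

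Of the 65 genes, 64 had enough counts to be tested, and 15 of them rose and 19 fell after Cre at an edgeR adjusted p under 0.05. That is 53.1% of the members tested, near the 51.2% of all 12862 genes tested that passed, so the count alone does not set the family apart. The exception without a test was Kdm4d, an H3K9 demethylase gene, with 3 to 10 counts in each library. The changes were small. The median absolute change on the log2 scale was 0.18 over the members and 0.25 over all genes tested, and 5 members (7.81%) moved by over 1.5-fold in either direction, against 19.5% of all genes tested. All 3 CRE libraries lay above all 3 GFP libraries for 18 members and below them for 21, where 59.6% of all genes tested had groups that did not overlap. With counts taken as shares of all counts, without TMM factors, these numbers were 32 above and 10 below. The same count over all genes was not made, so whether the family differs from other genes there cannot be told. With its sign, the median was -0.03 over the members and 0.01 over all genes tested.

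**Figure D1:**
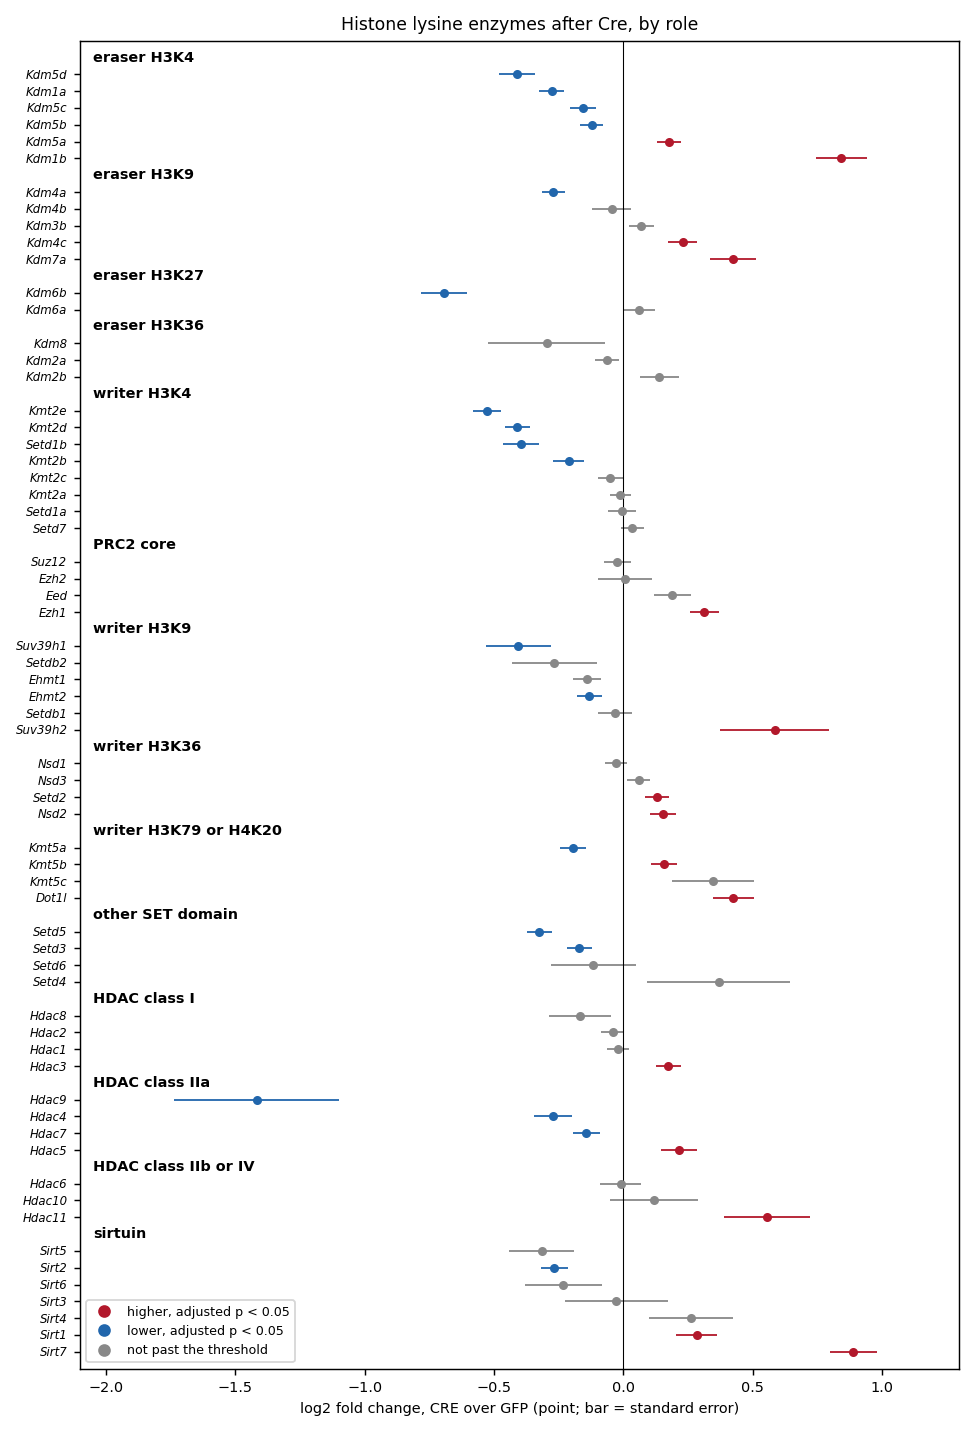
Log2 fold change (CRE over GFP, edgeR) of the 64 tested genes, grouped by role, with a point for each estimate and a bar for its standard error; red points passed the threshold as higher and blue points as lower. The erasers of H3K4 and H3K9, the writers of H3K9, the writers of H3K79 or H4K20, the class IIa HDACs and the sirtuins each hold genes that passed in both directions under TMM scaling. Hdac9 (-1.42) lies farthest to the left and Sirt7 (0.89) and Kdm1b (0.84) farthest to the right.

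The 5 members past 1.5-fold were Sirt7, Kdm1b and Suv39h2, which rose, and Hdac9 and Kdm6b, which fell. Sirt7, a nuclear and nucleolar NAD-dependent deacetylase, had 7.71, 8.57 and 8.11 CPM in GFP libraries and 15.4, 15.3 and 14.5 CPM in CRE libraries. The groups were far apart and the libraries within each close together, with a log2 fold change of 0.89 (SE 0.09, adjusted p 2.68e-05). Kdm1b, which codes for the H3K4 demethylase LSD2, had 14.1, 12.2 and 14.1 CPM in GFP libraries and 26.4, 24.5 and 21.4 CPM in CRE libraries. Every CRE library was above every GFP library, with a log2 fold change of 0.84 (SE 0.10, adjusted p 6.68e-05). Kdm6b, which codes for the inducible H3K27 demethylase JMJD3, had 41.0, 32.1 and 34.3 CPM in GFP libraries and 22.6, 21.7 and 22.1 CPM in CRE libraries. Its CRE libraries were nearly equal and all lower, at 61.7% of the GFP mean, with a log2 fold change of -0.69 (SE 0.09, adjusted p 0.000114).

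Hdac9, a class IIa deacetylase known as a partner of MEF2 factors, had the largest change of the family and few reads. Its raw counts were 24, 32 and 42 in GFP libraries and 18, 11 and 9 in CRE libraries. The groups did not overlap, the CRE mean stood at 37.4% of that in GFP, and the log2 fold change was -1.42 (SE 0.32, adjusted p 0.00404). On the FPKM scale, which divides by transcript length, it was also among the least abundant members, at 0.56 ± 0.08 FPKM in GFP (SD, n = 3) and 0.15 ± 0.07 FPKM in CRE (SD, n = 3). Suv39h2, an H3K9 methyltransferase, was as scarce, with 28, 35 and 34 counts in GFP libraries and 56, 40 and 57 in CRE libraries. CRE replicate 2 lay closest to the GFP libraries, and the log2 fold change was 0.59 (SE 0.21, adjusted p 0.0392). This call was lost without any of GFP replicate 1, 2 or 3 or CRE replicate 1 or 3 (adjusted p of 0.0602 to 0.119) and in DESeq2 (0.109).

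**Figure D2:**
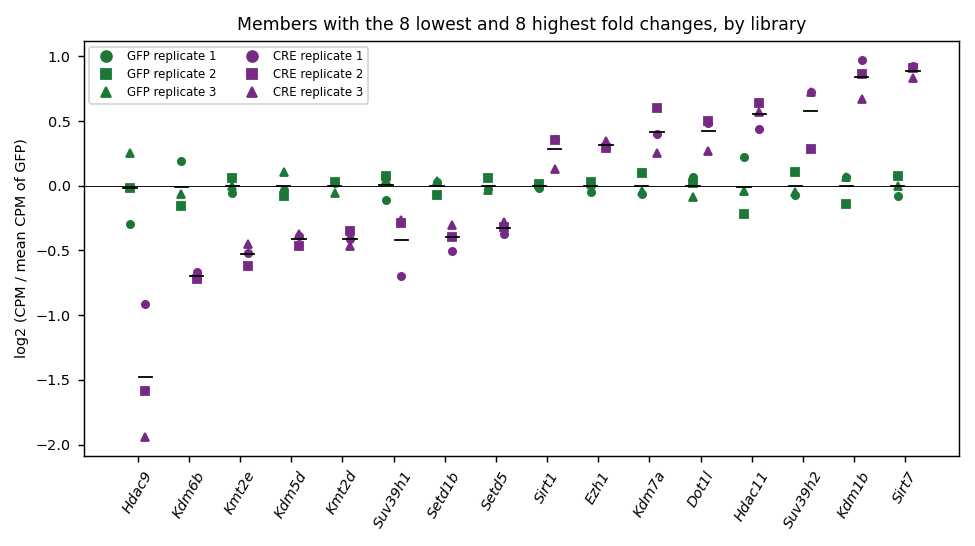
Level of the 8 lower and 8 higher members with the largest changes in each library, as log2 of CPM over the gene's mean CPM in GFP; green marks are GFP libraries, purple marks CRE libraries, mark shape gives the replicate number and each black line is the mean of a group's 3 marks. The CRE marks lie wholly below the GFP marks for the 8 lower genes and wholly above them for the 8 higher genes, with a wide spread for Hdac9 and a narrow spread for Sirt7.

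The stretch of DNA just before the start of 5 members is shown because TET3 acts on CpG dinucleotides. These starts were picked without a rule and differ widely in how many CpG they hold, so their range is a selected one. The 100 bases before the RefSeq start nearest to the gene's GENCODE 5′ end are given on the gene's own strand in build GRCm38.p6, for Kdm1b (chr13:47043399-47043498, plus strand), Kdm1a (chr4:136602724-136602823, minus strand), Ezh1 (chr11:101226464-101226563, minus strand), Dot1l (chr10:80755103-80755202, plus strand) and Hdac9 (chr12:34917096-34917195, minus strand). None of these stretches overlaps an annotated exon, and capitals mark each CG.
Kdm1b: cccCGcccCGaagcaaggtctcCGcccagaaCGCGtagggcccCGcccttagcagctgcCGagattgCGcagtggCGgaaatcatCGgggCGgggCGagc
Kdm1a: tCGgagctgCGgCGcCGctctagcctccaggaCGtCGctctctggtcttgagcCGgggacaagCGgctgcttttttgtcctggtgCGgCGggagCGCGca
Ezh1: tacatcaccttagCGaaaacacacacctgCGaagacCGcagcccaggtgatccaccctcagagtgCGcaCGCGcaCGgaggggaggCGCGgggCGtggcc
Dot1l: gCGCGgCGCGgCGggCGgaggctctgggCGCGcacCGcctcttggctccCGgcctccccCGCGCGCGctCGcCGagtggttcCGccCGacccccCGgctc
Hdac9: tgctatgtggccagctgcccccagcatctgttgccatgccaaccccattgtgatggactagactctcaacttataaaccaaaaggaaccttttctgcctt
Kdm1b and Kdm1a, which changed in opposite directions, held 12 CG each here, Ezh1 held 10, Dot1l held 19 and Hdac9 held 0. RefSeq has a second start for Hdac9, 388206 bases from the GENCODE 5′ end, with 1 CG in the same length, and a single start for the other 4 genes. Over the 250 bases before the start, for which 50 of the 64 tested members had a RefSeq window, the median was 19.5 CG in 12 higher members, 13 in 15 lower members and 16 in 9990 tested genes. The RefSeq start used lay 42669, 27570 and 15358 bases from the GENCODE 5′ end of the gene for Sirt1, Setd5 and Hdac4, and at most 724 bases from it for the other members. The motif GGGCGG was found on either strand in 10 of the 12 windows of higher members and 8 of the 15 of lower members, beside 60.3% of all windows. CCAAT was in 2 of 12 and 8 of 15 (36.9% of all), and CCGGAA in 3 of 12 and 0 of 15 (22.7% of all). TGACTCA was in 0 of 12 and 2 of 15 (3.07% of all), CACGTG in 1 of 12 and 1 of 15 (8.42% of all), and TGACGTCA in 1 of 12 and 0 of 15 (2.74% of all). These are counts of letters, and DNA methylation is not analysed here.

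Among the erasers of H3K4 methylation, all 6 genes passed the threshold under TMM, 2 as higher and 4 as lower, where 51.2% of all genes tested passed. The flavin-dependent pair moved apart: Kdm1b rose, and Kdm1a, which codes for LSD1 of the CoREST complex and is the more abundant of the pair at 21.2 ± 0.13 FPKM in GFP against 2.91 ± 0.21 FPKM for Kdm1b (SD, n = 3), fell by 0.28 on the log2 scale (SE 0.05, adjusted p 0.000943). Kdm1a had 1087, 1197 and 1312 counts in GFP libraries and 1036, 1056 and 1016 in CRE libraries, which were the lowest 3. The Kdm1a call was lost with library size alone (-0.11, adjusted p 0.0703) and on log2(FPKM + 1) (-0.11, 0.104). The JmjC-domain genes of the Kdm5 group also split. Kdm5a, whose protein was first described as a partner of RB, rose by 0.18 (SE 0.05), whereas Kdm5b, the X-linked Kdm5c and the Y-linked Kdm5d changed by -0.12, -0.15 and -0.41 on the log2 scale. Kdm5d had 29.6, 28.7 and 32.6 CPM in GFP libraries and 23.1, 21.9 and 23.4 CPM in CRE libraries (SE 0.07, adjusted p 0.000740). Of the other Y-linked genes, Ddx3y and Eif2s3y gave -0.16 and -0.17 on the log2 scale and passed under TMM, but gave 0.00 and -0.01 without passing when scaled by library size alone (adjusted p 0.960 and 0.869). Uty gave 0.01 without passing under TMM and 0.17 with library size alone, where it passed as higher (0.0454), and Kdm5d stayed lower at -0.25 (0.0113). The signs of Kdm5b and Kdm5c turned with library size alone (0.04 and 0.01). Their calls were also lost without several single libraries (Kdm5b without GFP replicate 2 or 3 or CRE replicate 1 or 3, adjusted p of 0.0925 to 0.161, and Kdm5c without GFP replicate 1 or 2 or CRE replicate 1 or 2, 0.0515 to 0.0779), and that of Kdm5b in DESeq2 (0.0846).

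The erasers of H3K9 methylation gave 2 higher, 1 lower and 2 genes that did not pass (60% passed, against 51.2% of all genes tested). Kdm7a, a demethylase of H3K9 and H3K27, rose from 25.4, 28.5 and 25.8 CPM in GFP libraries to 35.1, 40.3 and 31.6 CPM in CRE libraries, with a log2 fold change of 0.42 (SE 0.09, adjusted p 0.00294). In the Kdm4 group, which erases H3K9 and H3K36 methylation, Kdm4c rose by 0.23 (SE 0.06, adjusted p 0.00685) and Kdm4a fell by 0.27 on the log2 scale (SE 0.04, adjusted p 0.000549), while Kdm4b gave -0.04 (SE 0.07, adjusted p 0.646). The Kdm4a call was lost with library size alone (-0.11, adjusted p 0.0546) and on log2(FPKM + 1) (-0.09, 0.152). Kdm3b gave 0.07 (SE 0.05, adjusted p 0.245). Of the H3K27 erasers, Kdm6b fell as described above, and Kdm6a, the X-linked UTX gene, had 402, 484 and 498 counts in GFP libraries and 503, 482 and 526 in CRE libraries. The Kdm6a groups overlapped, with a log2 fold change of 0.06 (SE 0.06, adjusted p 0.451). Both Kdm6a and Kdm3b passed as higher with library size alone, at 0.22 and 0.23 (0.0110 and 0.00199). None of the 3 genes listed for H3K36, Kdm2a, Kdm2b and Kdm8, passed the threshold (log2 fold changes of -0.06, 0.14 and -0.30), though with library size alone Kdm2b passed as higher (0.30, adjusted p 0.00634) and the sign of Kdm2a turned (0.10).

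Among the genes listed as writers of H3K4 methylation, 4 of 8 fell and none rose under TMM (50% passed, against 51.2% of all genes tested, and 25.7% of all genes tested fell). Kmt2e, which codes for MLL5, is on this list by family only, since its SET domain is generally held to lack histone methyltransferase activity. It had 2571, 3074 and 3189 counts in GFP libraries and 2157, 1955 and 2312 in CRE libraries, a log2 fold change of -0.53 (SE 0.05, adjusted p 2.99e-05). Kmt2d, the MLL4 enzyme of enhancers, had 86.6, 87.4 and 82.4 CPM in GFP libraries and 64.1, 67.1 and 62.0 CPM in CRE libraries, a log2 fold change of -0.41 (SE 0.05, adjusted p 8.01e-05). Setd1b, a writer of promoter H3K4 trimethylation, had 35.2, 32.8 and 35.4 CPM in GFP libraries and 24.3, 26.2 and 28.0 CPM in CRE libraries, a log2 fold change of -0.40 (SE 0.07, adjusted p 0.000894). In each of these genes the CRE libraries were all below the GFP libraries. Kmt2b, the MLL2 gene, changed by -0.21 (SE 0.06, adjusted p 0.0135), a call lost without CRE replicate 1 (0.0606) and with library size alone (-0.05, 0.525). The remaining 4 did not pass: Kmt2c gave -0.05 (SE 0.05), Kmt2a gave -0.01 (SE 0.04), Setd1a gave -0.00 (SE 0.06) and Setd7 gave 0.04 (SE 0.05). With library size alone in place of TMM, Kmt2a, Setd1a and Setd7 passed as higher (0.15, 0.16 and 0.20 on the log2 scale). On the authors' FPKM values none of the 4 calls held, and Kmt2d gave 0.01 with log2(FPKM + 1) (adjusted p of 0.952).

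Of the 4 core genes of Polycomb repressive complex 2 (PRC2), which writes H3K27 methylation, Ezh1 rose and the others did not pass the threshold (25% passed, against 51.2% of all genes tested). Ezh1, the catalytic subunit typical of cells that no longer divide, had 29.7, 31.4 and 31.1 CPM in GFP libraries and 37.9, 37.7 and 39.1 CPM in CRE libraries, with a log2 fold change of 0.31 (SE 0.06, adjusted p 0.000894). Ezh2, the catalytic subunit typical of dividing cells, had 14.2, 14.4 and 14.0 CPM in GFP libraries and 16.4, 13.6 and 12.9 CPM in CRE libraries. The groups overlapped and CRE replicate 1 was the highest of the 6, with a log2 fold change of 0.01 (SE 0.10, adjusted p 0.965), whose sign turned without that library (-0.10). On log2(FPKM + 1) values Ezh2 gave 0.22 and passed as higher (0.0428). Eed, the subunit that binds the finished mark, had 434, 432 and 441 counts in GFP libraries and 543, 501 and 524 in CRE libraries. All CRE libraries of Eed were higher, but its log2 fold change of 0.19 (SE 0.07) missed the threshold with an adjusted p of 0.0505, and it passed without GFP replicate 1 (0.0117), with limma-voom (0.0466), with library size alone (0.35, 0.00188) and on log2(FPKM + 1) (0.34, 0.00212). Suz12, the scaffold, had 71.7, 71.4 and 70.9 CPM in GFP libraries and 65.6, 71.7 and 73.3 CPM in CRE libraries, overlapping groups with a log2 fold change of -0.02 (SE 0.05, adjusted p 0.741), which turned to 0.14 and passed with library size alone (0.0438).

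The writers of H3K9 methylation gave 1 higher gene, 2 lower genes and 3 that did not pass (50% passed, near the 51.2% of all genes tested). Suv39h1, the paralog of Suv39h2 in pericentric heterochromatin, had 12.1, 13.8 and 13.5 CPM in GFP libraries and 8.06, 10.7 and 10.9 CPM in CRE libraries. CRE replicate 1 was the lowest, and the log2 fold change of -0.41 (SE 0.13, adjusted p 0.0204) did not pass without GFP replicate 2 or 3 or CRE replicate 1 (0.0570 to 0.0653), with library size alone (-0.24, 0.125) or on log2(FPKM + 1) (0.150). Ehmt2, which codes for G9a, changed by -0.13 (SE 0.05, adjusted p 0.0421), a call lost without any library but GFP replicate 1 (0.0511 to 0.155) and with library size alone (0.03, with the sign turned), and its partner Ehmt1 gave -0.14 (SE 0.05) without passing (0.0547), though it passed without GFP replicate 2 (0.0375). Setdb2 had 207, 401 and 389 counts in GFP libraries and 291, 285 and 286 in CRE libraries. GFP replicate 1 was the lowest of the 6 and the other GFP libraries the highest, with a log2 fold change of -0.27 (SE 0.17, adjusted p 0.207) and an adjusted p of 0.00104 without GFP replicate 1. Setdb1 gave -0.03 (SE 0.06).

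The writers of H3K36 methylation gave 2 higher genes and 2 that did not pass, and those of H3K79 and H4K20 methylation 2 higher genes, 1 lower gene and 1 that did not pass (50% and 75% passed, against 51.2% of all genes tested). Dot1l, the H3K79 methyltransferase, rose from 23.8, 23.0 and 21.3 CPM in GFP libraries to 31.8, 32.1 and 27.3 CPM in CRE libraries, with a log2 fold change of 0.43 (SE 0.08, adjusted p 0.00139). Among the H3K36 writers, Setd2, which places the trimethyl mark, and Nsd2, a dimethyl writer, rose by 0.13 (SE 0.05, adjusted p 0.0379) and 0.16 (SE 0.05, adjusted p 0.0250). Nsd1 gave -0.03 and Nsd3 gave 0.06 without passing, but with library size alone they gave 0.13 and 0.22 and passed as higher (0.0212 and 0.00193). Setd2 lost its call without GFP replicate 3 or any CRE library (0.0514 to 0.152), and Nsd2 without GFP replicate 2 or 3 or CRE replicate 1 or 2 (0.0531 to 0.0866), and both in DESeq2 (0.0737 and 0.109). The H4K20 writers divided: Kmt5a, the monomethyl writer, fell by 0.19 on the log2 scale under TMM (SE 0.05, adjusted p 0.00771) but gave -0.03 without passing with library size alone (0.600) and on log2(FPKM + 1) (0.651), whereas Kmt5b, which adds further methyl groups, rose by 0.16 (SE 0.05, adjusted p 0.0215). Kmt5b lost its call without GFP replicate 1 or CRE replicate 2 or 3 (0.0551 to 0.0804) and in DESeq2 (0.0754). Kmt5c gave 0.35 (SE 0.16) without passing (0.0939), and passed with library size alone (0.51, 0.0190). Among the other SET-domain genes, Setd5 had 2571, 3018 and 3065 counts in GFP libraries and 2341, 2357 and 2546 in CRE libraries, a log2 fold change of -0.32 (SE 0.05, adjusted p 0.000277). Setd3, an actin histidine methyltransferase, changed by -0.17 (SE 0.05, adjusted p 0.0134), which did not pass without GFP replicate 3 or CRE replicate 3 (0.0566 and 0.0649) or with library size alone (-0.01, 0.911) and turned to 0.01 on log2(FPKM + 1). Setd4 and Setd6 did not pass.

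The class I deacetylases gave 1 higher gene and 3 that did not pass (25% passed, against 51.2% of all genes tested). HDAC1 and HDAC2 are the catalytic subunits of the NuRD, SIN3 and CoREST corepressors. Hdac1 had 1554, 1799 and 1988 counts in GFP libraries and 1844, 1770 and 1896 in CRE libraries, and Hdac2 had 1610, 1824 and 1914 in GFP libraries and 1839, 1707 and 1903 in CRE libraries. Their CPM groups overlapped, with log2 fold changes of -0.02 (SE 0.04, adjusted p 0.727) and -0.04 (SE 0.04, adjusted p 0.463). Scaled by library size alone, they gave 0.14 and 0.12 and passed as higher (0.0183 and 0.0343). Hdac3, the deacetylase of NCoR, had 47.1, 45.3 and 46.9 CPM in GFP libraries and 53.1, 51.0 and 53.1 CPM in CRE libraries. All CRE libraries were higher by a small step, with a log2 fold change of 0.18 (SE 0.05, adjusted p 0.0127), and the call was lost in DESeq2 (0.0569). Hdac8 gave -0.17 (SE 0.12) without passing.

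All 4 class IIa genes, signal-dependent repressors that move between nucleus and cytoplasm, passed the threshold under TMM, where 51.2% of all genes tested did. Hdac9, Hdac4 and Hdac7 were lower and Hdac5 was higher, but with library size alone Hdac4 and Hdac7 did not pass and the sign of Hdac7 turned (0.02). Hdac4 had 413, 538 and 548 counts in GFP libraries and 420, 432 and 446 in CRE libraries, and its groups were apart only with TMM factors, at -0.27 (SE 0.07, adjusted p 0.0113). As shares of all counts they overlapped, and library size alone gave -0.11 (0.234). Hdac5 had 489, 471 and 519 counts in GFP libraries and 613, 602 and 590 in CRE libraries, with every CRE library higher, at 0.22 (SE 0.07, adjusted p 0.0235). Hdac7, which is prominent in endothelial cells, changed by -0.14 (SE 0.05, adjusted p 0.0436), and the endothelial markers fell by a median of 1.17 on the log2 scale in the same libraries, whose part in the change of Hdac7 was not tested. The Hdac5 call was lost without GFP replicate 2 or 3 or CRE replicate 1 or 2 (0.0628 to 0.0895) and in DESeq2 (0.0588), and the Hdac7 call without GFP replicate 1 or 2 or CRE replicate 1 or 2 (0.0909 to 0.166), in DESeq2 (0.107), with upper-quartile scaling and on FPKM values. Hdac11, the single class IV gene, had 58, 47 and 58 counts in GFP libraries and 78, 87 and 87 in CRE libraries. Its CRE libraries were all higher, with a log2 fold change of 0.56 (SE 0.17, adjusted p 0.0179), a call lost without GFP replicate 2 or 3 or CRE replicate 2 (0.0564 to 0.0639). Of the class IIb genes, Hdac6 gave -0.01 (SE 0.08) and Hdac10 gave 0.12 (SE 0.17), and neither passed.

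The sirtuins, deacylases that consume NAD, gave 2 higher genes, 1 lower gene and 4 that did not pass (42.9% passed, against 51.2% of all genes tested). Beside Sirt7, the nuclear Sirt1 rose from 20.8, 21.3 and 21.2 CPM in GFP libraries to 27.1, 26.9 and 23.1 CPM in CRE libraries. CRE replicate 3 lay closest to the GFP libraries, and the log2 fold change was 0.28 (SE 0.08, adjusted p 0.0114). Sirt2, the mainly cytoplasmic member, had 992, 1042 and 1081 counts in GFP libraries and 932, 873 and 915 in CRE libraries, all lower, at -0.27 (SE 0.05, adjusted p 0.00181). The Sirt2 call was lost with library size alone (-0.10, adjusted p 0.108) and on log2(FPKM + 1) (-0.10, 0.126). Sirt6, a chromatin-bound deacetylase of H3, had 7.21, 5.75 and 7.17 CPM in GFP libraries and 6.18, 4.82 and 6.12 CPM in CRE libraries. Those groups overlapped, with a log2 fold change of -0.23 (SE 0.15, adjusted p 0.217). The mitochondrial Sirt3, Sirt4 and Sirt5 gave -0.03 (SE 0.20), 0.26 (SE 0.16) and -0.32 (SE 0.13) without passing, and Sirt4 passed with library size alone (0.42, adjusted p 0.0454).

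Ratios of paralogs within a library do not depend on how libraries are scaled, and they are given here without a test as the log2 ratio of raw counts. Kdm6b over Kdm6a was 0.71, 0.24 and 0.41 in GFP libraries and -0.26, -0.30 and -0.33 in CRE libraries, so Kdm6b had more counts than Kdm6a in every GFP library and fewer in every CRE library. Ezh2 over Ezh1 was -1.06, -1.12 and -1.15 in GFP libraries and -1.21, -1.47 and -1.60 in CRE libraries. Suv39h2 over Suv39h1 moved the other way, from -2.79, -2.80 and -2.93 to -1.42, -2.28 and -1.85. In these 3 pairs the groups did not overlap, though how often this holds for other pairs of genes was not counted. Hdac2 over Hdac1 was 0.01 ± 0.05 in GFP and -0.02 ± 0.03 in CRE libraries, and Ehmt2 over Ehmt1 was 0.76 ± 0.11 and 0.77 ± 0.03 (SD, n = 3), with overlapping groups in both pairs. A further 3 pairs were picked after their values were seen, as pairs whose members had passed in opposite directions. Kdm1b over Kdm1a was -2.34 ± 0.12 in GFP and -1.22 ± 0.13 in CRE libraries, Kdm4c over Kdm4a was -1.64 ± 0.06 and -1.14 ± 0.02, and Kmt5b over Kmt5a was -0.65 ± 0.10 and -0.29 ± 0.07 (SD, n = 3).

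**Figure D3:**
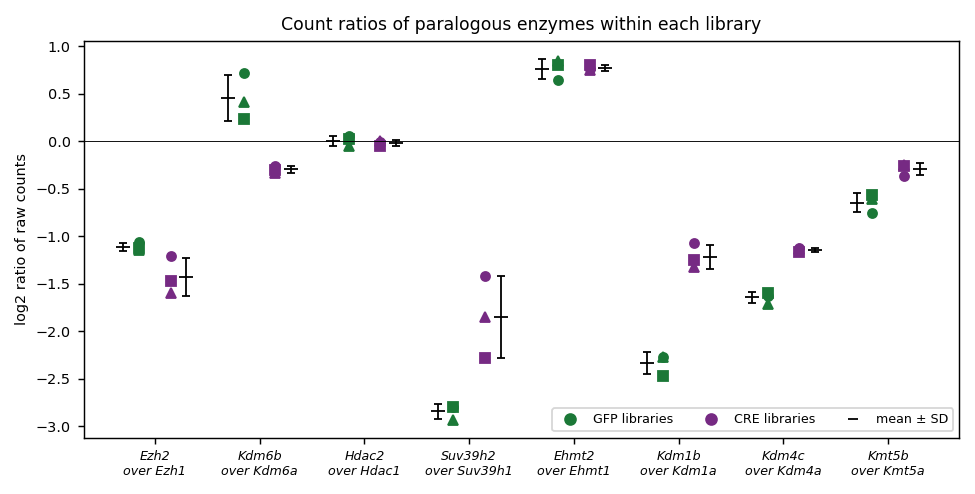
Log2 ratio of raw counts of 8 pairs of paralogs in each library (green GFP, purple CRE; circle, square and triangle for replicates 1, 2 and 3), with bars for mean ± SD over 3 libraries. Groups are apart for every pair but Hdac2 over Hdac1 and Ehmt2 over Ehmt1, and Kdm6b over Kdm6a crosses 0. The pairs Kdm1b over Kdm1a, Kdm4c over Kdm4a and Kmt5b over Kmt5a were picked because their members had passed in opposite directions. Their separation was fixed by that choice.

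On the FPKM scale, mean levels of the members in GFP libraries ran from 0.12 FPKM for Kdm4d to 47.3 FPKM for Hdac2. The highest levels were those of Hdac2 (47.3 ± 0.86 FPKM), Hdac1 (46.6 ± 1.66), Kmt5a (39.02 ± 2.16), Setd3 (37.9 ± 1.11) and Sirt2 (30.5 ± 1.49), each with SD and n = 3. Hdac2 and Hdac1 did not differ beyond their spread, nor did Kmt5a and Setd3. Of the other members, 21 lay between 10 and 30 FPKM, 35 between 1 and 10, and 4 under 1 (Kdm4d, Hdac9, Suv39h2 and Setd4). Of the 5 members that changed by over 1.5-fold, the most abundant in GFP libraries was Kdm6b, at 5.09 ± 0.65 FPKM (SD, n = 3).

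**Figure D4:**
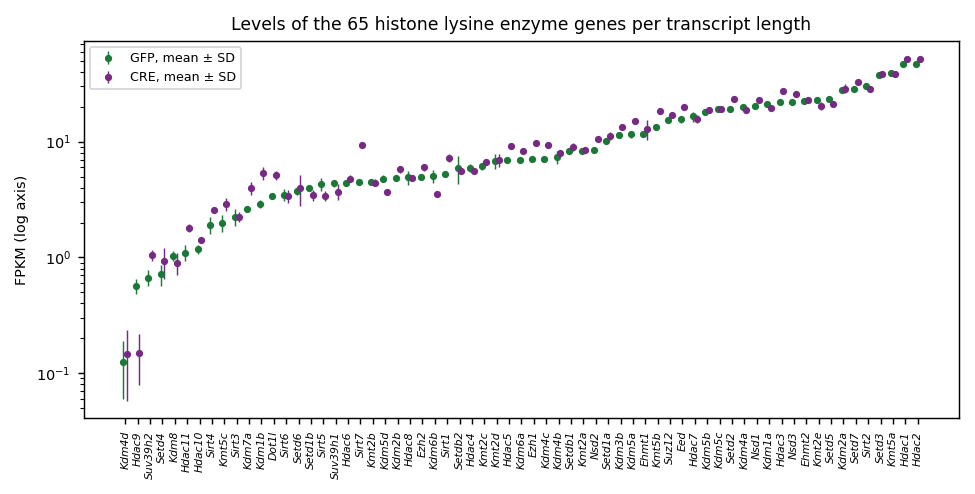
Level of all 65 genes per transcript length (FPKM, log axis), ordered by the GFP mean, with green points for GFP and purple points for CRE and bars for SD over 3 libraries. Hdac1 and Hdac2 are at the top in both groups, Kdm4d and Hdac9 at the bottom and most purple points sit slightly above the green ones on this scale, which carries no TMM scaling.

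The direction of several small changes turned with the scaling of the libraries. TMM factors were 0.944 to 0.947 for GFP and 1.05 to 1.06 for CRE libraries, and without them the median over all genes tested rose by 0.16 on the log2 scale. With library size alone, 29 members were higher and 7 lower in CRE libraries: 14 members that had not passed were then higher, 12 lower calls were lost, and the sign turned for 18 members, 6 of them among the 14. On log2(FPKM + 1) values 27 were higher and 4 lower. Over all genes tested, 49.8% of calls were upward with TMM, 72.6% with library size alone and 72.2% with log2(FPKM + 1). In all 16 other fits run (other scalings, filters, tests and units, the replicate number as a block, and each library left out), 8 of the 15 higher calls held: Sirt7, Kdm1b, Dot1l, Kdm7a, Ezh1, Sirt1, Kdm4c and Kdm5a. Of the 19 lower calls 4 held: Kdm6b, Kdm5d, Setd5, and Hdac9, which had 15 such fits because it lacks 10 counts in every library. Kdm1a, Kdm4a, Hdac4, Sirt2 and Kmt5a were lower in every fit on this list but missed the threshold with library size alone and on FPKM values. Leaving out each library in turn kept 21 of the 34 calls, and DESeq2 lost 9 and added none (adjusted p of 0.0569 to 0.109 for those lost): Hdac7, Ehmt2, Kdm5b, Setd2, Nsd2, Kmt5b, Hdac3, Hdac5 and Suv39h2.

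**Figure D5:**
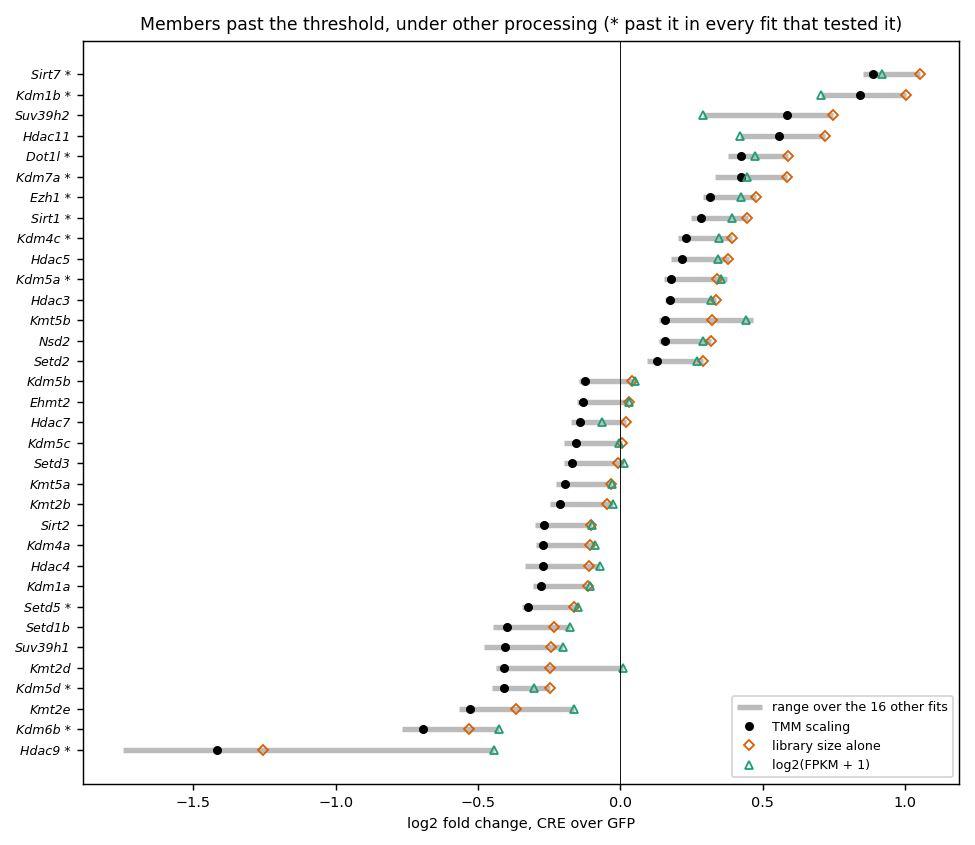
Log2 fold change (CRE over GFP) of the 34 members past the threshold with TMM scaling (black), library size alone (orange diamonds) and limma on log2(FPKM + 1) (green triangles), with a grey bar for the range over the 16 other fits and a star for calls that held in every fit that tested the gene. All values with library size alone lie to the right of the black points, FPKM values lie to the left only for Kdm1b, Suv39h2 and Hdac11, and small negative changes such as those of Kdm5b cross 0.

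The other genes of the same machinery were counted from lists that hold no member. Of the PRC2 accessory subunits 2 of 8 tested rose and 2 fell, with Epop at 1.04 (SE 0.26) and the histone chaperone Rbbp4 at -0.20 (SE 0.05). Of 19 PRC1 subunits 5 rose and 2 fell, with Rybp at 0.41 (SE 0.08) and Phc1 at -0.53 (SE 0.08). Of 11 tested subunits shared by the COMPASS H3K4 methyltransferases 2 rose, Rbbp5 (0.48) among them, and 2 fell, Men1 (-0.39) among them. With library size alone the counts of higher and lower genes were 3 and 0, 12 and 2, and 7 and 1 for these 3 lists. Under that scaling 5529 of all 12862 genes tested were higher and 2083 lower.

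Of 25 genes of the HDAC corepressor complexes 4 rose and 10 fell, counts that became 10 and 7 with library size alone. The NuRD subunits Chd3 (-0.84, SE 0.07) and Mta3 (-0.68, SE 0.06) had its lowest p-values. Of 13 histone acetyltransferases 0 rose and 4 fell (3 and 2 with library size alone), including Kat2a at -0.42 (SE 0.07) and Crebbp at -0.32 (SE 0.06). Of 8 tested arginine methyltransferases 2 rose and 4 fell (3 and 2 with library size alone), including Prmt1 at -0.73 (SE 0.05) and Carm1 at -0.69 (SE 0.06). Of 18 tested SET or JmjC relatives 3 rose and 6 fell (5 and 4 with library size alone), with Mecom at -1.10 (SE 0.07) and the H3K9 demethylase Phf8 at -0.65 (SE 0.05). Among partners of class IIa HDACs, 2 of 8 tested rose and 4 fell (3 and 2 with library size alone), with the kinase Prkd3 at -0.63 (SE 0.05) and Mef2d at -0.45 (SE 0.05). Of 10 genes of NAD salvage and use 2 rose and 4 fell (3 and 2 with library size alone), with the NAD-consuming Cd38 at -0.60 (SE 0.08) and the kinase Nadk at -0.23 (SE 0.05). Under TMM these shares stand beside 25.5% of all genes tested that rose and 25.7% that fell. The counts with library size alone stand beside 5529 higher and 2083 lower of all 12862 genes tested.

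Whether counting used the strand is not stated, so genes whose exons overlap others are less certain. Setd1a shares 52.3% of its exonic bases with another gene in GENCODE M21, Kdm3b 24.6%, Hdac4 22.4%, Hdac11 17.9%, Suv39h1 14.6%, Sirt3 12.7%, Suv39h2 9.98%, Kmt2e 9.31%, Kdm1b 9.19%, Kdm2b 8.74%, Eed 6.82%, Kmt5b 6.28%, Setdb1 4.73%, Kdm6b 4.11%, Suz12 3.60% and Sirt7 3.46%, and the other members at most 2.85%. Most partners lie on the opposite strand, such as Dek for Kdm1b and Srpk2 for Kmt2e, whereas Mafg overlaps Sirt7 and Gm49388 overlaps Setd1a on the same strand. Sirt7 lies at chr11:120618372-120625240 (minus strand), Kdm1b at chr13:47043499-47085279 (plus strand), Kdm6b at chr11:69398508-69413675 (minus strand) and Hdac9 at chr12:34047580-34917095 (minus strand), all in GRCm38.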

How the data were processed

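RNA-seq libraries of mouse cardiac fibroblasts (3 GFP, 3 CRE) were grouped and numbered as their titles give it. According to the methods, reads were cleaned by Trimmomatic and mapped to GRCm38 by HISAT2, and the authors deposited raw counts per gene from HTSeq-count and FPKM values from Cufflinks. Versions of these tools and the strand setting of the counting are not given in the sources used here, and the labels and the methods name different RNA and library kits. The log2 fold changes, p-values and group means that the authors deposited beside them hold the study's own comparison and were not used.

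Counts were tested in R 4.3.3 with edgeR 4.0.16 (filterByExpr with minimum count 10 and total 15, TMM scaling, two-sided quasi-likelihood test, Benjamini-Hochberg adjustment over 12862 genes, threshold 0.05). SE is the absolute log2 fold change over the square root of F. CPM are counts scaled to the effective library size. The test was tested on simulated data. Total counts of 17002126 to 20343590 per library leave genes under about 10 counts untestable. Coordinates came from GENCODE M21, and sequences from RefSeq tables of GRCm38.p6. Alternatives used limma 3.58.1 and DESeq2 1.42.0, and figures matplotlib 3.10.9.

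The members, the gene lists, the rule for named genes and the tests were chosen with earlier results of these data known. By that rule values in each library were given to the 8 highest and 8 lowest log2 fold changes past the threshold and to Ezh1, Ezh2, Eed, Suz12, Kdm6a, Kdm6b, Hdac1, Hdac2, Hdac3, Sirt1 and Sirt6, and each further list names its 2 genes of lowest p. Values in each library of Kdm1a, Hdac4, Hdac5, Sirt2 and Setdb2, and of Uty, Ddx3y and Eif2s3y over groups, were chosen after they were seen. The genes whose sequence before the start is printed were picked without a rule.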

Additional observations from a re-analysis of the deposited data

How the results depend on the processing

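Against 15 higher and 19 lower members, library size alone gave 29 higher and 7 lower, limma on log2(FPKM + 1) and on log2(FPKM + 0.1) each 27 higher and 4 lower, and DESeq2 9 higher (and 16 lower). With library size alone 56.25% of the members tested passed, beside 59.2% of all genes tested. On FPKM values these shares were 48.4% and 53.6%, and in DESeq2 39.1% and 44.8%. The study's methods used DESeq with p under 0.05 without adjustment, beside a fold above 1.5 or below 0.66. Those thresholds, applied here to the edgeR fit, left 3 higher and 2 lower, 7.81% of the members tested beside 17.8% of all genes. An adjusted p under 0.01 left 6 and 11, 26.6% of the members tested beside 36.9% of all genes. Size factors by RLE, upper-quartile scaling, both count filters and limma-voom kept both counts within 1.5 times. Leaving out each library in turn gave 10 to 14 higher and 13 to 18 lower members. In those fits 37.5% to 50% of the members tested passed, beside 43.3% to 49.9% of all genes tested. The replicate number as a block gave 15 higher and 18 lower members: Suv39h2 and Hdac7 lost their calls (adjusted p 0.0642 and 0.0614), Eed passed as higher (0.0390), and no other member's call changed. Same-numbered libraries deviated together little (r of 0.046, 0.18 and -0.018), so the numbers were not taken as pairs.

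Signs turned for these small changes and for Kmt2d, which gave -0.41 in the main fit. With library size alone, the log2 fold change was 0.14 for Suz12 and Hdac1, 0.12 for Hdac2, 0.020 for Hdac7, 0.040 for Kdm5b and 0.0075 for Kdm5c. On log2(FPKM + 1) and log2(FPKM + 0.1), it was 0.0097 and 0.011 for Kmt2d, 0.13 and 0.14 for Suz12, 0.14 in both for Hdac1, 0.12 in both for Hdac2, and 0.051 and 0.054 for Kdm5b. Ezh2 gave -0.0011 with limma-voom and -0.00048 with the replicate block, and -0.10 to 0.080 with a library left out. Suz12 gave -0.053 to 0.028 with a library left out, without CRE replicate 1 at the upper end. The difference in Hdac2 over Hdac1 ran from -0.052 to 0.00045 and that in Ehmt2 over Ehmt1 from -0.050 to 0.051 with a library left out, and the latter was -0.083 on FPKM. The cause of these turns was not tested. With 3 libraries a group, the smallest change past the threshold among the members was -0.12 (Kdm5b), and low counts limit what can be said of Hdac9, Suv39h2, Hdac11 and Kdm4d.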

Other observations

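The transcript length implied by the deposited values (counts divided by FPKM and by the library total, in kb) should be the same in all libraries if both values count the same reads over the same length. Its groups did not overlap for 4 of the 52 members that could be compared (7.69%), beside 15.1% of 9375 genes. For Kmt2e it was 7.02, 6.97 and 6.58 kb in GFP libraries and 5.73, 6.25 and 5.99 kb in CRE libraries, and for Kmt5b at least 3.85 kb in GFP and 3.28, 3.61 and 3.75 kb in CRE libraries. For Kdm5d it was higher in CRE libraries, at 6.43, 6.29 and 6.90 kb against 5.975, 6.002 and 5.961 kb, and for Setdb1 the difference was under 0.02 kb. In Kmt2d, whose sign turned on FPKM, the groups overlapped at 10.2, 13.1 and 12.5 kb in GFP libraries against 9.17, 9.51 and 11.1 kb in CRE libraries. All 5 genes were picked with their values in view. The log2 fold change of Kmt2e was -0.36 with library size alone and -0.16 with log2(FPKM + 1), and that of Kmt5b 0.32 and 0.44. The cause was not tested.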
